A study of Mus musculus with 24 samples.

Results

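The 10 genes described here are the myosin heavy chains Myh1, Myh2, Myh3, Myh4, Myh6, Myh7, Myh7b and Myh8 of striated muscle and the nonmuscle heavy chains Myh9 and Myh10, taken by symbol from 24043 gene symbols in the deposited expression table. All 10 had a row. They were measured by RNA sequencing in C2C12 cells, an immortalised line of mouse myoblasts, so every library comes from the same line. The study crossed the culture medium with the oxygen level, and each of the 4 groups held 2 biological replicates, A and B. Growth medium was DMEM with 10% fetal bovine serum, in which cells were kept below confluence. Differentiation medium was DMEM with 2% horse serum and ITS, an insulin, transferrin and selenium supplement, and the number of days in it was not given in the sources used here. Oxygen was 21% (normoxia) or 2% (hypoxia), and the groups are called growth or differentiation at 21% or 2%. No genotype, transgene or drug separated the groups.

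Class II myosins are the motors that pull on actin. Each is built from a pair of heavy chains, which carry the motor domain and a coiled-coil tail, and from light chains bound to the neck. In skeletal muscle the embryonic and perinatal heavy chains (Myh3 and Myh8) precede the adult fast chains (Myh2 for type IIa, Myh1 for type IIx and Myh4 for type IIb fibres) and the slow chain (Myh7). Myh6 and Myh7 are also the alpha and beta chains of heart muscle, Myh7b is an ancient slow-type relative that hosts a microRNA, and Myh9 and Myh10 drive cortical contraction and division in most cells.

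The muscle genes Myh3, Myh2, Myh1, Myh4 and Myh8 stand in a row on chromosome 11 in that order, all on the plus strand and followed by Myh13, the chain of extraocular muscle. A 14-base string upstream of the start was shared by Myh2, Myh1, Myh4 and Myh8 and by no other of 27025 RefSeq promoters (4, or 0.0148%). It was picked as the longest string common to these 4 genes, so their sharing it was set by the search. Its absence elsewhere was not compared with that of other strings of this length. The 4 windows are shown because these 4 genes were high in the same libraries. They are RefSeq sequence of build GRCm38.p6, 5′ to 3′ on the plus strand, with the shared string in capitals.
Myh2, chr11:67170882-67170935: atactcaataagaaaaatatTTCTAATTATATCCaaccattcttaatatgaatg
Myh1, chr11:67199922-67199975: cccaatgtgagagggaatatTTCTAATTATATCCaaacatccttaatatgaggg
Myh4, chr11:67237634-67237687: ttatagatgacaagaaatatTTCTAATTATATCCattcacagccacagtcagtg
Myh8, chr11:67277050-67277103: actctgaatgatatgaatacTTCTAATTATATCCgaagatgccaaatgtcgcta
The string began at -125 from the start of Myh2, -160 of Myh1, -158 of Myh4 and -54 of Myh8. Myh3, the cluster's first gene, did not hold these letters in its window.

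The 250 bases upstream of Myh3 and Myh7b are shown because these were the striated chains that passed the test for differentiation in hypoxia. Capitals mark an E-box (CANNTG, the class of site that MyoD and myogenin bind), ACGTG (the core of the element that hypoxia-inducible factors bind) and TATAAA.
Myh3, chr11:67078050-67078299, plus strand: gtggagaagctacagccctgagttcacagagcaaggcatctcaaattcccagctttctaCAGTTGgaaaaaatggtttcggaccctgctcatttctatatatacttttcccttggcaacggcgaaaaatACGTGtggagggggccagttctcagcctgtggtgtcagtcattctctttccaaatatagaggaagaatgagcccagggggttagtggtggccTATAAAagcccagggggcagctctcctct
Myh7b, chr2:155610993-155611242, plus strand: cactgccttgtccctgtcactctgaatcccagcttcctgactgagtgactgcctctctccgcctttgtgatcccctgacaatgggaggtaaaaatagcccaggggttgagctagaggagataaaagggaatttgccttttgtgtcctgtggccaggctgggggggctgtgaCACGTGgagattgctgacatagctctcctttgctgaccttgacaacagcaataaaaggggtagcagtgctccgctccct
In Myh3 the E-box lay at -191, ACGTG at -121 and TATAAA at -29. In Myh7b the 6 capitals at -79 form an E-box that holds ACGTG on each strand. On either strand, ACGTG was found upstream of 3 of the 10 genes (Myh1, Myh3 and Myh7b) and of 16.57% of all promoters, E-boxes upstream of 8 of the 10 and of 66.04% of all, and TATAAA upstream of 5 of the 10 and of 12.97% of all. CAGCTG, an E-box variant counted among the E-boxes, was upstream of 2 of the 10 and of 12.77% of all promoters. CATTCC, the letters that TEAD factors bind, was upstream of 5 of the 10 (for Myh7 at the first of its starts) and of 12.63%. The MEF2 consensus was searched in a strict form only, held by none of the 10 and by 0.518% of all promoters. A looser form, with C or T as first base and A or G as last, was not counted. The stretch ttaTTTATAg upstream of Myh1, Myh4 and Myh8, counted here as TATAAA on the other strand, has the letters of that looser form. Such matches describe letters and were not tested as binding sites.

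**Figure D1:**
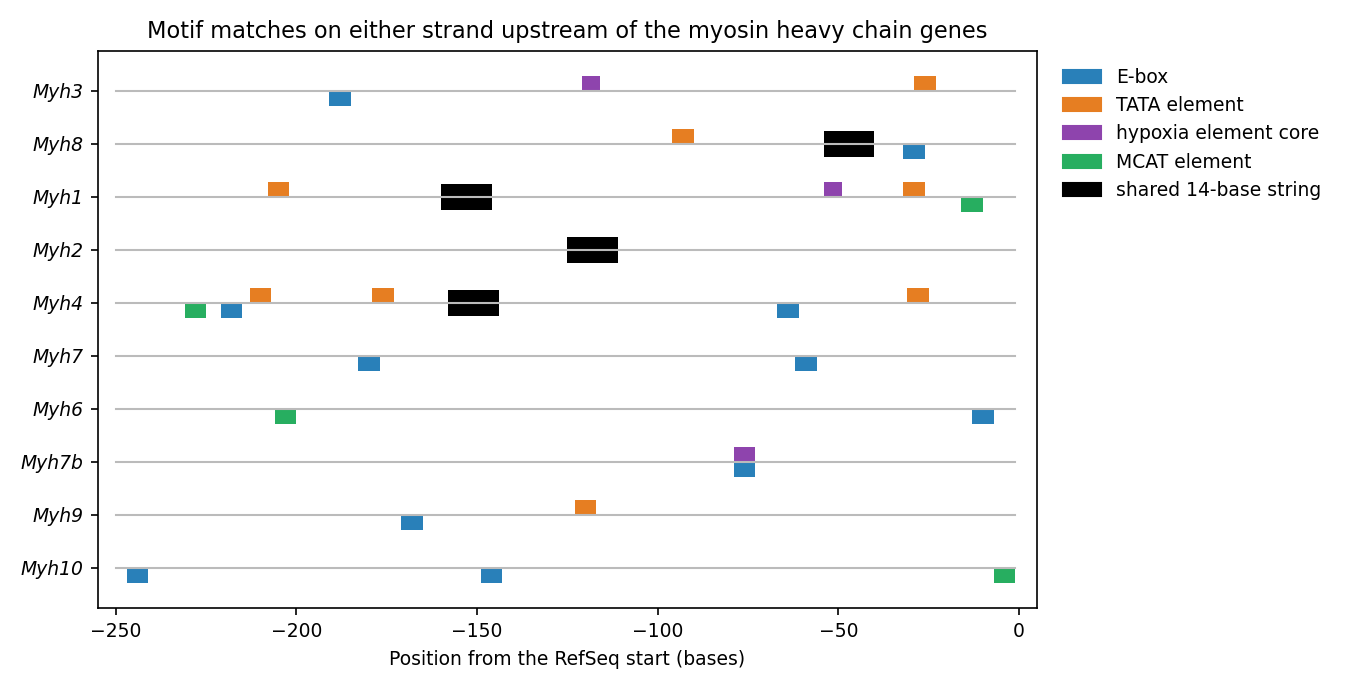
Motif matches in the 250 bases before the RefSeq start of each of the 10 myosin heavy chain genes, by distance from the start in bases (Myh7 from the second of its starts). Coloured blocks are matches on either strand and black blocks are the 14-base string, which appears in Myh8, Myh1, Myh2 and Myh4 only.

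Values are FPKM, fragments per kilobase of transcript scaled to library size, so levels can be compared between genes. The relative depth of the libraries, read from the spacing of low values, ranged from 0.633 to 1 of the deepest library, and 3 fragments corresponded to 0.0208 to 0.0330 FPKM for a transcript of heavy chain length. Values below that range are at the limit of counting and are given as listed. The summed level of 6 skeletal muscle markers checked the cell type: it was 410 and 340 FPKM in growth medium at 21% oxygen, 5971 and 5973 in differentiation medium at 21%, 97.1 and 104.5 in growth medium at 2%, and 56 and 80.6 in differentiation medium at 2%. Markers of other cells were low or mixed. Endothelial (5 genes) and adipocyte (5 genes) marker sums reached at most 0.52 and 1.18 FPKM, with Emcn, Plin1, Cidec and Lep at 0 throughout. The 7 cardiac markers summed to 482 and 460 FPKM in differentiation at 21% and to between 6.45 and 19.5 elsewhere. Nppa was at 0 in all 8 libraries and Ryr2 reached at most 0.00819 FPKM, while Tnnt2, which embryonic skeletal muscle also makes, reached 480 FPKM. Nkx2-5, Tnni3 and Nppb each reached a group mean of 1 FPKM. Their log2 changes with hypoxia in differentiation medium were 0.57, -1.03 and 1.19 (limma adjusted p = 0.00531, 0.000434 and 0.111). The 6 smooth muscle markers summed to 143 to 448 FPKM, with Acta2 between 66.5 and 397 and the smooth muscle heavy chain Myh11 at 0.0891 or less. The 5 osteoblast markers summed to 86.7 and 104.7 FPKM in differentiation at 21%, through Bglap, and to between 6.73 and 23.3 in the other libraries, with Ibsp at 0 outside differentiation at 21%. The part of the cardiac and osteoblast markers in the results below was not tested. In bulk RNA, fewer cells of a type and less RNA per cell cannot be told apart.

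The developmental chains were abundant in differentiation medium at 21% oxygen and nowhere else. Myh3, the embryonic chain, was at 1.24 and 0.846 FPKM in growth at 21% oxygen (A and B), 149.8 and 146.3 in differentiation at 21%, 0.0251 and 0.0265 in growth at 2%, and 0.933 and 0.417 in differentiation at 2%. The hypoxic differentiation libraries thus lay near the normoxic growth libraries, and the hypoxic growth libraries lay at about 3 fragments. Myh8, the perinatal chain, was at 0.0417 and 0.0396 FPKM in growth at 21% oxygen, 51.9 and 51.4 in differentiation at 21%, 0.00813 and 0.00287 in growth at 2%, and 0.0308 and 0 in differentiation at 2%. Outside the normoxic differentiation pair, the Myh8 values correspond to at most about 5.12 fragments a library.

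The adult fast chains had the same shape. Myh1 (type IIx) was at 0.146 and 0.194 FPKM in growth at 21% oxygen, 144.2 and 155.4 in differentiation at 21%, 0.0249 and 0.0250 in growth at 2%, and 0.191 and 0.0468 in differentiation at 2%. Myh2 (type IIa) was at 0.0299 and 0.0170, 16.8 and 18.0, 0 and 0.00726, and 0.0128 and 0 FPKM in the same order of groups. Myh4 (type IIb) was at 0.0142 and 0.00615, 10.5 and 10.4, 0 and 0, and 0.00553 and 0 FPKM. For each of the 3 genes the normoxic differentiation pair was far above the other 6 libraries. These chains have near-identical coding sequences and how reads shared by several genes were divided is not given in the sources used here, so the split between Myh1, Myh2, Myh4 and Myh8 is uncertain. Myh8 was listed in a hypoxic growth library at 0.347 of the value of a single fragment.

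In differentiation at 21% the slow and cardiac chains were lower still. Myh7, the slow and beta-cardiac chain, was at 0.117 and 0.0859 FPKM in growth at 21% oxygen, 3.12 and 2.76 in differentiation at 21%, 0.00827 and 0.0350 in growth at 2%, and 0.0441 and 0.0698 in differentiation at 2%. Myh6, the alpha-cardiac chain, was at 0.0747 and 0.0123, 1.04 and 0.930, 0 and 0.00880, and 0 and 0.0117 FPKM. Both were highest in the normoxic differentiation pair. Myh6 stands next to Myh7 on chromosome 14, each is overlapped by a gene on the opposite strand (Cmtm5 and Mhrt), and whether counting used strand is not given in the sources used here.

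Myh7b was the exception among the striated chains. It was at 0.0418 and 0.0242 FPKM in growth at 21% oxygen, 1.202 and 1.187 in differentiation at 21%, 1.56 and 1.38 in growth at 2%, and 3.83 and 3.19 in differentiation at 2%. Both hypoxic groups stood above both normoxic groups. The share of all genes whose groups separate in this way was not counted. The normoxic growth values correspond to about 4 and 3 fragments.

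The nonmuscle chains were present in every library. Myh9, the heavy chain of nonmuscle myosin IIA, was at 228 and 219.9 FPKM in growth at 21% oxygen, 116.9 and 112.9 in differentiation at 21%, 212.5 and 223.5 in growth at 2%, and 222.8 and 262.7 in differentiation at 2%. The normoxic differentiation pair was lowest and the other 3 groups overlapped. Myh10, the chain of nonmuscle myosin IIB, was at 24.7 and 26.5, 8.75 and 9.26, 14.6 and 14.6, and 13.6 and 22.4 FPKM in that order. Again the normoxic differentiation pair was lowest, and the hypoxic differentiation pair spanned the hypoxic growth pair with replicate A below it and replicate B above it.

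**Figure D2:**
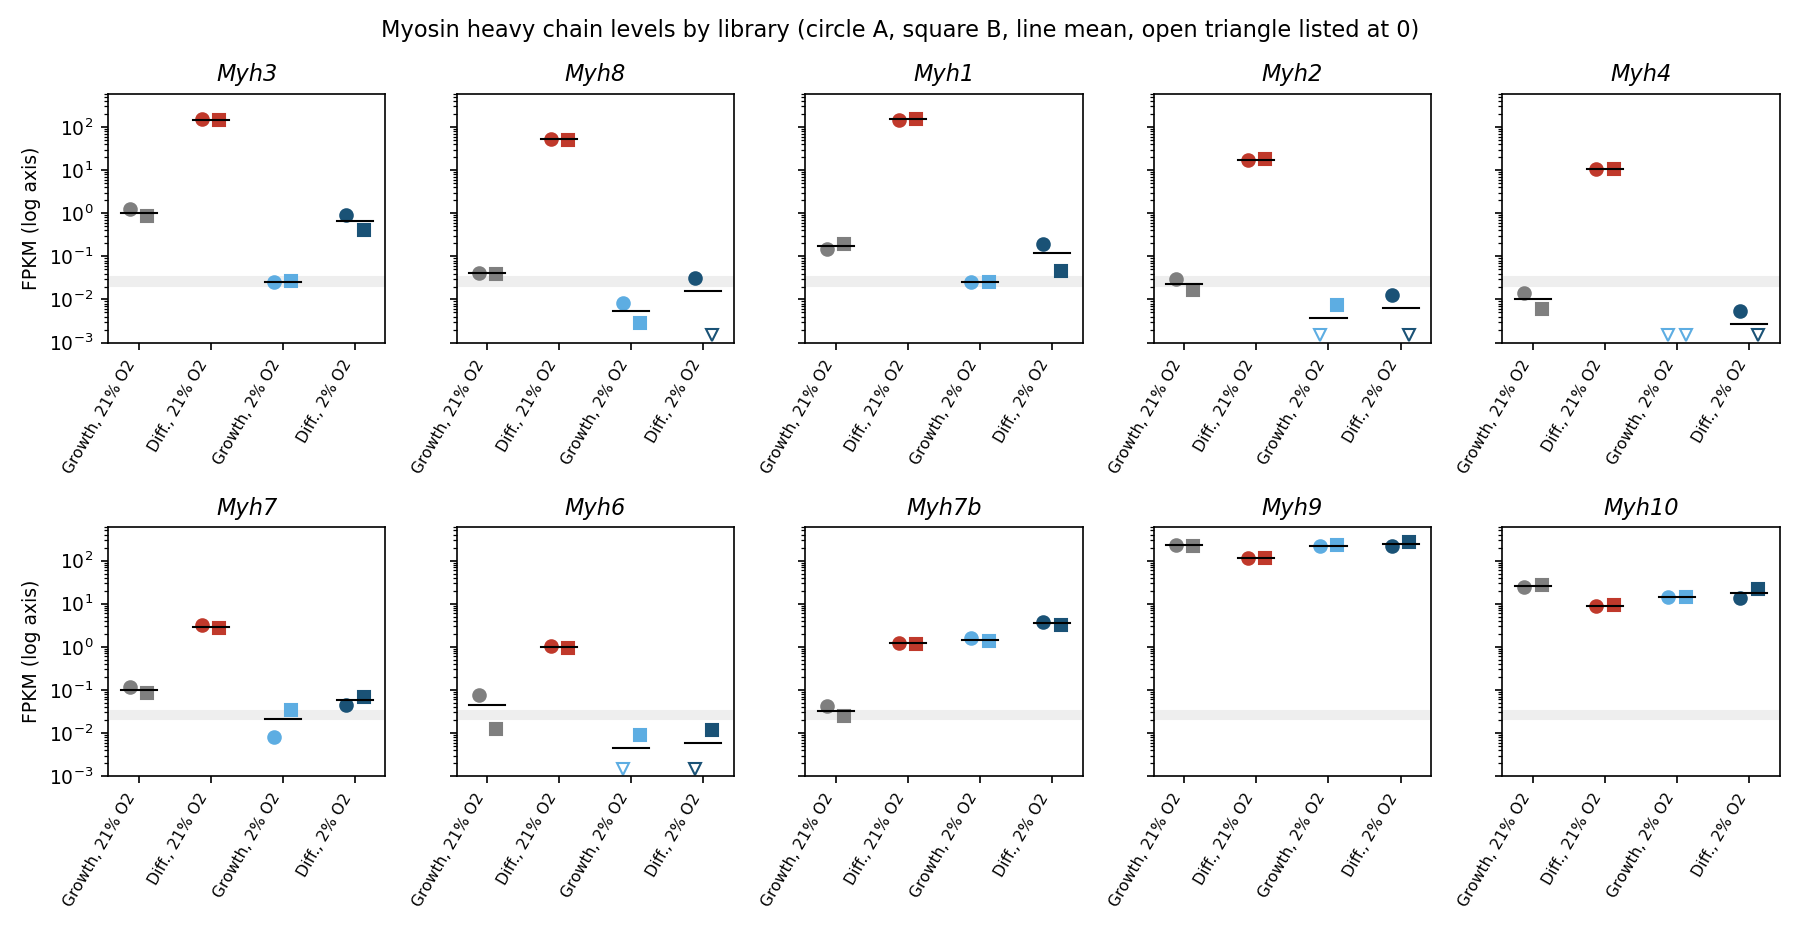
Level of each of the 10 myosin heavy chains in FPKM on a log axis, in 8 libraries of 4 groups (circles replicate A, squares replicate B, line the group mean, open triangles libraries listed at 0). The grey band is the level of 3 fragments, 0.0208 to 0.0330 FPKM, and Myh7b is the striated chain whose hypoxic libraries lie above its normoxic ones.

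The make-up of the striated chains differed between groups. Their summed level was 1.46 ± 0.34 FPKM (SD, n = 2) in growth at 21% oxygen, 382.5 ± 5.51 in differentiation at 21%, 1.56 ± 0.097 in growth at 2% and 4.39 ± 0.92 in differentiation at 2%. Beside the nonmuscle chains, the striated sum was 75.5% ± 0.63 (SD, n = 2) of the 10 genes in differentiation at 21% and 0.58%, 0.67% and 1.69% in normoxic growth, hypoxic growth and differentiation at 2%. In differentiation at 21% the order of levels was Myh1 (39.2% of the striated sum), Myh3 (38.7%), Myh8 (13.5%), Myh2 (4.55%), Myh4 (2.73%), Myh7 (0.77%), Myh7b (0.31%) and Myh6 (0.26%). Myh1 and Myh3 overlapped between replicates and were not separated, whereas each later neighbour in that order was lower in both libraries.

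In the other groups the order was different. Myh3 made 70.9% ± 2.56 (SD, n = 2) of the small striated sum in growth at 21% oxygen. Myh7b made 2.22% there but 94.4% ± 2.12 in growth at 2% and 80.6% ± 6.74 in differentiation at 2%, where Myh3 followed with 14.8% ± 5.19. Without Myh7b the striated sum was 1.43 ± 0.32 FPKM in growth at 21% oxygen, 0.086 ± 0.028 in growth at 2% and 0.88 ± 0.47 in differentiation at 2% (SD, n = 2). Most of the striated signal in both hypoxic groups was therefore Myh7b. The ratio of Myh9 to Myh10 was 8.76 ± 0.67 in growth at 21% oxygen and 12.8 ± 0.82 in differentiation at 21% (SD, n = 2). It was 14.5 and 15.3 in growth at 2% and 16.3 and 11.7 in differentiation at 2%.

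**Figure D3:**
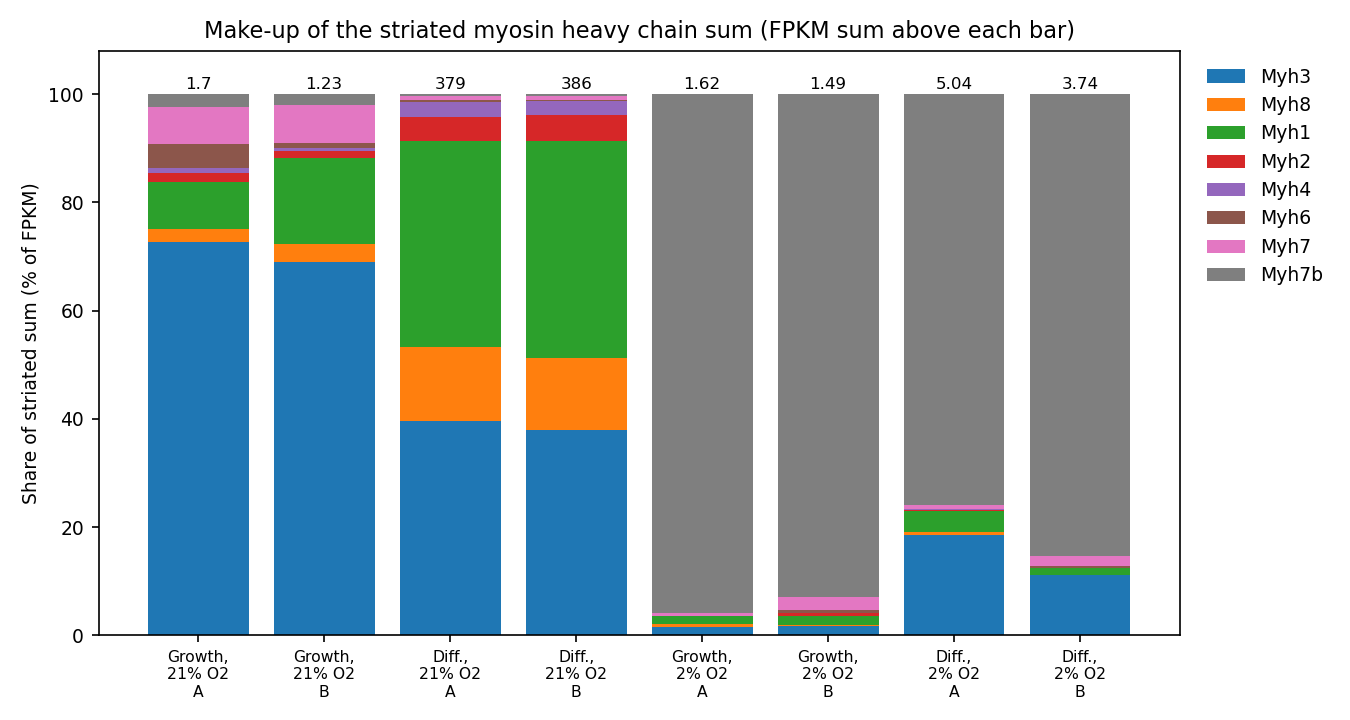
Share of each of the 8 striated heavy chains in their summed FPKM, in percent, for each library, with the sum in FPKM above the bar. Myh1 and Myh3 fill most of the normoxic differentiation bars, and Myh7b fills 80.6% to 94.4% on average of the hypoxic ones.

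Tests used limma on log2(FPKM + 1) over all 8 libraries with Benjamini-Hochberg adjustment over 12389 genes, and log2 changes below are on that scale, which understates the change of genes with low values. Of the 10 genes 9 were tested. Myh6 reached a group mean of 0.986 FPKM, just under the minimum of 1, and Myh1, Myh2, Myh4, Myh7 and Myh8 passed that minimum in differentiation at 21% only, so they could enter the test only by being high there. Their counts are given as a description.

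Differentiation medium at 21% oxygen was compared with growth medium to ask what the medium does under ordinary culture. Of the 9 genes tested, 7 rose, against 25.5% of all genes tested, and the nonmuscle pair fell, against 41% of all genes. Of the 7, all but Myh3 and Myh7b reached the minimum level in differentiation at 21% only and so had to be higher there. Myh1 rose by 7.01 ± 0.11 (SE; adjusted p = 1.82e-07, limma with Benjamini-Hochberg), an 882-fold difference of group means. Myh3 rose by 6.197 ± 0.17 (adjusted p = 6.73e-07) or 142-fold, and Myh8 by 5.66 ± 0.087 (adjusted p = 1.82e-07). For Myh8 the ratio of means was 1271, with a counting interval of 682 to 2831 (95%, exact Poisson on the estimated fragments of the low group, counting error only). The same ratio was 744 (337 to 2419) for Myh2 and 1026 (325 to 9708; 1695 without normoxic growth replicate A) for Myh4, whose log2 changes were 4.17 ± 0.086 and 3.50 ± 0.081 (limma adjusted p = 2.45e-07 and 3.34e-07).

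The remaining striated chains rose less. Myh7 rose by 1.84 ± 0.087 (limma adjusted p = 6.57e-06), a 29.1-fold difference of means. Myh7b rose by 1.09 ± 0.10 (limma adjusted p = 0.000138), a ratio of 36.2 with a counting interval of 18.7 to 95.7. The untested Myh6 had a ratio of 22.7 (13 to 54), which was 79.9 without normoxic growth replicate A and 13.2 without B. In the fit with no minimum level its log2 change was 0.93 (limma adjusted p = 2.33e-05). Myh9 fell by 0.96 ± 0.095 (limma adjusted p = 0.000158), a 1.95-fold lower mean, and Myh10 fell by 1.41 ± 0.20 (limma adjusted p = 0.000874), a 2.84-fold lower mean. The median of all genes tested was -0.20 in this comparison. Median-of-ratios scaling moved it to 0.02 and moved the share of higher genes among calls from 38.4% to 53.2%; Myh9 was then at -0.68 and Myh10 at -1.15 with both calls kept.

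At 2% oxygen the same change of medium was called for fewer of these genes. Myh3 rose by 0.69 ± 0.17 (limma adjusted p = 0.0189) and Myh7b by 0.87 ± 0.10 (limma adjusted p = 0.00151). The other 7 did not pass, and the share that rose was near that of all genes, of which 23.3% rose and 17.6% fell. Myh1, Myh2, Myh4, Myh7 and Myh8 were at 0.191 FPKM or less in both hypoxic groups. On log2(FPKM + 1) such values differ little, so their not passing does not show that they were unchanged. The ratio of means was 26.2 for Myh3, with a counting interval of 12.9 to 76.3 and 16.2 without hypoxic differentiation replicate A, and 2.39 for Myh7b. Myh1 had a ratio of 4.76 (2.26 to 13.4; 1.88 and 7.64 without hypoxic differentiation replicate A and B) at a log2 change of 0.12 (limma adjusted p = 0.401). Myh7 had a ratio of 2.63 (1.21 to 8.73; 1.63 and 6.89 without hypoxic growth replicate A and B) at 0.05 (limma adjusted p = 0.693). The Myh7 means rest on about 12.7 estimated fragments in differentiation and 5.29 in growth at 2%. Its interval leaves out the counting error of the higher group and is too narrow, so it does not establish a difference. Myh2, Myh4 and Myh6 were under 3 fragments in both groups and have no ratio. Myh8, with about 1.39 and 4.43 estimated fragments in all, is given none either. Myh9 and Myh10 were at 0.15 ± 0.095 and 0.24 ± 0.20 (limma adjusted p = 0.248 and 0.377).

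The call for Myh3 was lost in the fit on these 4 libraries alone (limma adjusted p = 0.0616) and without either hypoxic growth library (0.0899 and 0.0914), while its value stayed between 0.47 and 0.91 over all left-out libraries. Without hypoxic differentiation replicate A, Myh9 (0.27, limma adjusted p = 0.0265) and Myh10 (0.58, adjusted p = 0.00292) rose, and without replicate B Myh10 was at -0.09.

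The difference between these 2 responses to medium was tested as the interaction of medium and oxygen. It passed the test with a negative value, meaning a smaller response at 2% oxygen, for 6 of the 9 genes, against 18.7% of all genes, and with a positive value for 2, against 35.4%. For the 5 genes that entered the test only through differentiation at 21%, the minimum level favoured a negative value without fixing it. The interaction was -6.89 ± 0.15 for Myh1, -5.65 ± 0.12 for Myh8 and -5.51 ± 0.24 for Myh3 (limma adjusted p = 1.96e-06, 1.96e-06 and 1.1e-05). The values were -4.16 for Myh2, -3.50 for Myh4 and -1.79 for Myh7 (limma adjusted p = 2.6e-06, 3.23e-06 and 7.17e-05). The nonmuscle chains had the opposite sign, with 1.11 ± 0.13 for Myh9 and 1.65 ± 0.29 for Myh10 (limma adjusted p = 0.000709 and 0.00316). For Myh7b it was -0.22 ± 0.15 (limma adjusted p = 0.244), and with a pseudocount of 0.1 in place of 1 it was -2.09 (adjusted p = 0.00113), so the call for this gene depends on the scale chosen for its low values. Scaling moved the share of positive interactions among calls from 65.5% to 47.7% by median of ratios and to 53.8% by upper quartile, and all 8 calls held under each.

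**Figure D4:**
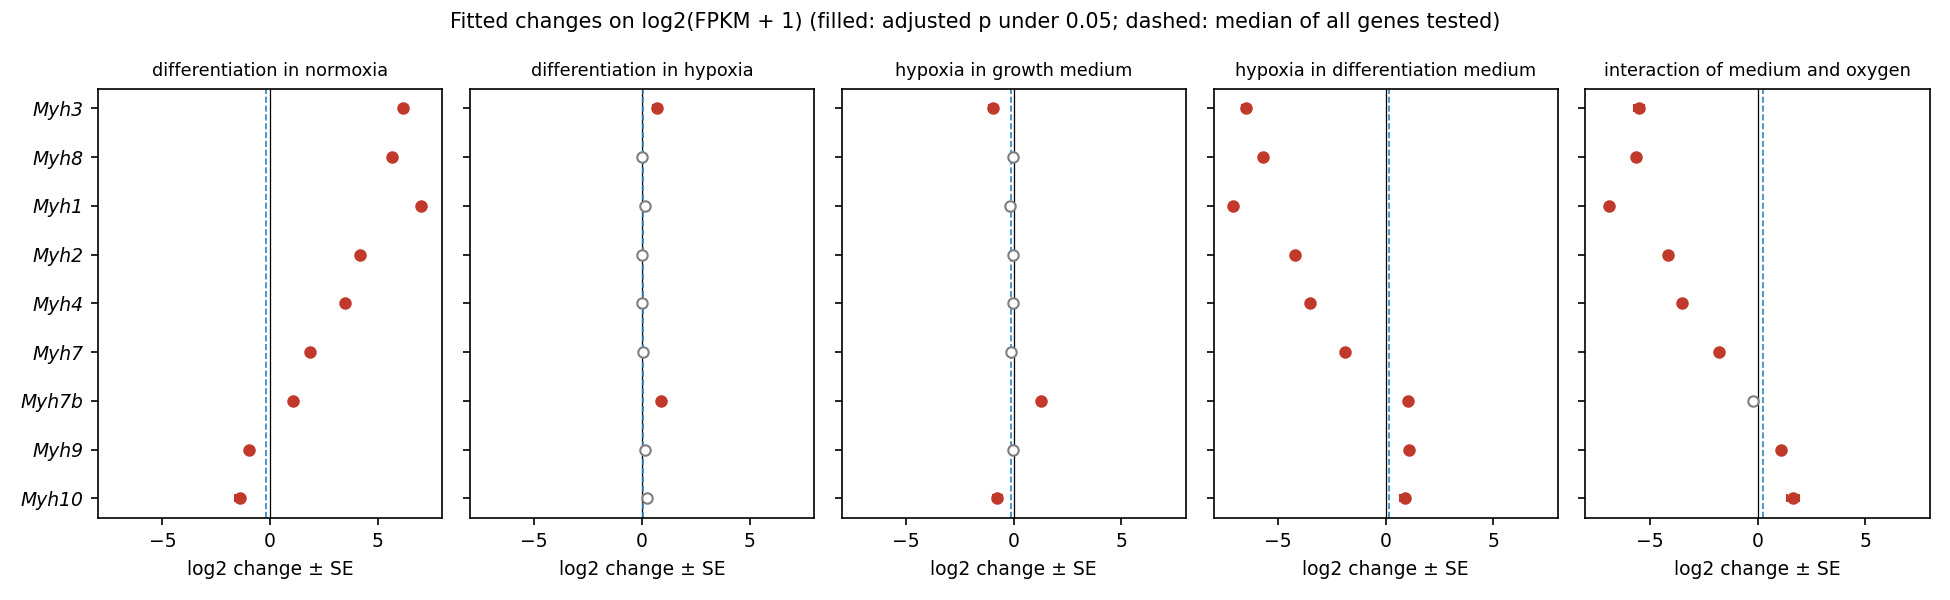
Fitted log2 changes on log2(FPKM + 1) with standard errors for the 9 myosin heavy chains tested, in 5 comparisons (filled points adjusted p under 0.05, dashed line the median of all 12389 genes). In hypoxia against normoxia in differentiation medium the 6 striated chains other than Myh7b lie between -7.08 and -1.90, while Myh7b, Myh9 and Myh10 lie between 0.89 and 1.07.

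Hypoxia was compared with normoxia in growth medium, in dividing myoblasts. Of the 9 genes 1 rose, near the 13.5% of all genes, and 2 fell, near the 28% of all genes. Myh7b rose by 1.26 ± 0.10 (limma adjusted p = 0.000276), a ratio of 44.5 with a counting interval of 23 to 117.8. Myh3 fell by 0.99 ± 0.17 (limma adjusted p = 0.00454), a ratio of 40.3 (19.8 to 117.6) in favour of normoxia. Myh10 fell by 0.77 ± 0.20 (limma adjusted p = 0.0227), a 1.75-fold lower mean. That call was lost when either library of normoxic growth, normoxic differentiation or growth at 2% was left out (adjusted p 0.054 to 0.101), with values of -0.82 to -0.72.

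The other 6 genes did not pass in that comparison. Myh1 was 6.81-fold higher in normoxia by ratio (3.24 to 19.2), with a log2 change of -0.19 (limma adjusted p = 0.2). It passed with a pseudocount of 0.1 (-1.11, limma adjusted p = 0.0346) and in the fit on these 4 libraries alone (adjusted p = 0.018). Myh7 was 4.68-fold higher in normoxia (2.16 to 15.5; 2.89 and 12.2 without hypoxic growth replicate A and B) at -0.11 (limma adjusted p = 0.359), and Myh8 7.39-fold (1.82 to 399.5; 14.2 without replicate A) at -0.05 (adjusted p = 0.686). These intervals leave out the counting error of the normoxic group and are too narrow. For Myh8 the normoxic and hypoxic growth means rest on about 9.29 and 1.39 estimated fragments, so its interval does not establish a difference. Myh9 was at -0.04 ± 0.095 (limma adjusted p = 0.776), and at 0.08 and 0.13 under median-of-ratios and upper-quartile scaling. Those scalings moved the share of higher genes among calls from 32.6% to 43.2% and 49.1%.

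Hypoxia was then compared with normoxia in differentiation medium. Of the 9 genes tested 6 were lower in hypoxia, against 27.7% of all genes, and 3 were higher, against 37.5%. Myh1 fell by 7.08 ± 0.11, Myh3 by 6.49 ± 0.17 and Myh8 by 5.70 ± 0.087 on the log2 scale (limma adjusted p = 1.4e-07, 5.01e-07 and 1.4e-07). By ratio of means Myh1 was 1262-fold lower, with 3201 without hypoxic differentiation replicate A and 786 without replicate B. Myh3 was 219-fold lower, with 355 without replicate A, and Myh8 3357-fold lower (1125 to 10572). Myh2 fell by 4.19, Myh4 by 3.51 and Myh7 by 1.90 (limma adjusted p = 2.1e-07, 3.07e-07 and 5.07e-06), with ratios of 2719 (538 to 16039), 3768 (417 to 91859) and 51.7 (29.5 to 94.8). The untested Myh6 had a ratio of 169 (39.5 to 8685) in favour of normoxia. For Myh8, Myh2 and Myh4, listed at 0 in replicate B, the ratios without it were 1679, 1359.5 and 1884, and for Myh6, at 0 in replicate A, 84.3 without that library.

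The 3 genes that were higher in differentiation at 2% differ in kind. Myh7b rose by 1.04 ± 0.10 (limma adjusted p = 0.000175), a 2.94-fold higher mean. Myh9 rose by 1.07 ± 0.095 (limma adjusted p = 9.62e-05), a 2.11-fold higher mean. Myh10 rose by 0.89 ± 0.20 (limma adjusted p = 0.00747), a 2-fold higher mean, and its call was lost without normoxic differentiation replicate A (adjusted p = 0.0516). Median-of-ratios scaling left Myh9 at 0.86 and Myh10 at 0.70 with both calls kept, and moved the share of higher genes among calls from 57.5% to 46.7%.

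Proliferation genes moved with Myh10 in the hypoxic differentiation libraries. Over 10 proliferation genes the summed level was 141.1 FPKM in A and 443.9 in B, where Myh10 was at 13.6 and 22.4. It was 351.5 and 365.6 in growth at 21% oxygen, 101.1 and 107.4 in differentiation at 21%, and 226.2 and 205.1 in growth at 2%. Acta2 also differed within the hypoxic differentiation pair, at 71.1 FPKM in A and 251.7 in B. The part of these genes in the Myh10 result was not tested.

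Among the other class II heavy chains, only Myh13, which ends the chromosome 11 cluster, could be tested. It was at 0.0258 and 0.0369 FPKM in growth at 21% oxygen, 2.86 and 2.89 in differentiation at 21%, 0.0258 and 0.0182 in growth at 2%, and 0.176 and 0.0545 in differentiation at 2%. It rose by 1.91 ± 0.089 with differentiation in normoxia and fell by 1.80 ± 0.089 with hypoxia in differentiation medium (limma adjusted p = 6.11e-06 and 7.04e-06). Like Myh1, Myh2, Myh4 and Myh8 it reached 1 FPKM in differentiation at 21% only, so these directions followed from the minimum level. Myh14, a nonmuscle relative, averaged 0.103, 0.699, 0.00804 and 0.00897 FPKM over normoxic growth, normoxic differentiation, hypoxic growth and differentiation at 2%. Myh11 and Myh15 did not exceed 0.0891 and 0.0333 FPKM in any library.

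Myh7b lies on chromosome 2 between Gss, a glutathione synthesis gene, and Trpc4ap, whose end it overlaps by 31 bases on the opposite strand. Gss was at 14.01 and 11.6 FPKM in growth at 21% oxygen, 18.6 and 18.1 in differentiation at 21%, 8.24 and 8.63 in growth at 2%, and 10.3 and 12.9 in differentiation at 2%. Trpc4ap was at 65.8 and 55.2, 43.8 and 43.4, 53.2 and 55.4, and 57.8 and 56.4 FPKM. Neither neighbour had the order of Myh7b: with hypoxia in growth medium Gss fell by 0.54 ± 0.13 (limma adjusted p = 0.018), and Trpc4ap was at -0.15 ± 0.094 (adjusted p = 0.249). In differentiation medium hypoxia lowered Gss by a log2 change of -0.62 (limma adjusted p = 0.00578), and Trpc4ap rose by 0.38 (adjusted p = 0.0103).

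Myh6, Myh7 and Myh7b host microRNAs, shown because their mature strands are close relatives. They are RefSeq sequences, 5′ to 3′, with the seed (bases 2 to 8) in capitals.
mmu-miR-208a-3p, in Myh6: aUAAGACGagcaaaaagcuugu
mmu-miR-208b-3p, in Myh7: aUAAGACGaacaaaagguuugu
mmu-miR-499-5p, in Myh7b: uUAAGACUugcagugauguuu
miR-208a-3p and miR-208b-3p share a seed, and the seed of miR-499-5p is a near relative of it. The rows for the 3 microRNA genes were listed at 0 in all 8 libraries, also where Myh7b was at 3.83 FPKM. The libraries came from a total RNA kit, not a small RNA protocol. Their zeros therefore do not show that the microRNAs were absent. The long noncoding RNA 2310065F04Rik (linc-MYH), a transcript of the fast myosin cluster, was listed at 0 in every library except the normoxic differentiation pair, at 0.902 and 1.02 FPKM.

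The genes most like a member in pattern were found by Pearson's r of log2(FPKM + 1) over the 8 libraries, among 7858 genes with a group mean of at least 10 FPKM. The points share libraries, so r is a description. For Myh3 they were the troponin genes Tnnc2 (r = 0.9995), Tnni1 (0.999) and Tnnt3 (0.9989), all subunits of the thin filament's calcium switch. For Myh7b they were Nos2, the inducible nitric oxide synthase (0.9872), the chloride transporter gene Clcn3 (0.9867) and the autophagy gene Atg2b (0.9866). Nos2 averaged 1.29, 19.7, 37.4 and 128.1 FPKM in normoxic growth, normoxic differentiation, hypoxic growth and differentiation at 2%, the same order of groups as Myh7b at higher levels. For Myh9 they were the nonmuscle tropomyosin gene Tpm4 (0.9963), Anapc5 (0.9952) and Slc27a1 (0.9949), and for Myh10 Pnp (0.9826), Rnpep (0.9822) and Rfc3 (0.9808).

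Of the 6 light chain genes that pair with the striated heavy chains, 4 could be tested and were high in the same libraries. All 4 rose with differentiation in normoxia (25.5% of all genes; median 8.42, all genes -0.20) and fell with hypoxia in differentiation medium (27.7% of all genes; median -8.95, all genes 0.15). Myl2 entered the test through differentiation at 21% only. The untested Myl7, the atrial regulatory chain, was listed at 0 in all libraries at 21% and at 0.126 and 0 FPKM in growth and 0.225 and 0.355 in differentiation at 2%, and Myl3, the slow and ventricular essential chain, did not exceed 0.0727 FPKM. Mylpf, the fast regulatory chain, was at 13.6 and 10.3 FPKM in growth at 21% oxygen, 4673 and 4936 in differentiation at 21%, 1.06 and 1.12 in growth at 2%, and 6.12 and 3.23 in differentiation at 2%. Myl1, the fast essential chain, was at 6.09 and 3.39, 3632 and 3577, 0.713 and 0.0839, and 2.13 and 1.67 FPKM. Both were thus far above the heavy chains in the normoxic differentiation pair and low in hypoxia, as Myh3 was. Mylpf rose by 1.39 ± 0.24 and Myl1 by 1.09 ± 0.28 with differentiation in hypoxia (limma adjusted p = 0.00517 and 0.0222), and the call for Myl1 was lost without either library of differentiation at 21%, without hypoxic growth replicate B and without hypoxic differentiation replicate A (adjusted p 0.0567 to 0.12). Myl4 (embryonic and atrial) was at 0.12 there (adjusted p = 0.676), and Myl2 (slow and ventricular) was listed at 0 in all hypoxic libraries.

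Genes that fold, tether or turn over thick filaments mostly rose and fell in the same comparisons. Of 16 tested of 18 listed, 15 rose and 1 fell with differentiation in normoxia (25.5% and 41% of all genes; median 4.49), and 14 fell and 1 rose with hypoxia in differentiation medium (27.7% and 37.5% of all genes; median -4.62). Of the 16, 10 reached 1 FPKM in differentiation at 21% only and so had to be higher there. With differentiation in hypoxia 3 rose, near the 23.3% of all genes, and 13 did not pass. Mybph, a thick filament binding protein, averaged 1059 FPKM in differentiation at 21% and 0.943 in differentiation at 2%, and Myom2, an M-band protein, averaged 478 and 1.91. Trim54, a muscle ring finger protein, averaged 50.8 and 0.249 FPKM. The general chaperone Hsp90aa1, needed for myosin folding, went against the list in hypoxia: it rose by 0.94 ± 0.13 in differentiation medium and 0.44 ± 0.13 in growth medium (limma adjusted p = 0.000703 and 0.0317). The growth medium call was lost without any of the 6 libraries outside hypoxic differentiation (adjusted p 0.0523 to 0.179). Unc45a, the myosin chaperone of nonmuscle cells, was the gene that fell with differentiation in normoxia (-0.89 ± 0.14, limma adjusted p = 0.00153).

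Fast and slow fibre genes moved alike in normoxic differentiation. All 10 fast fibre genes rose (median 4.36) and 8 of 9 slow fibre genes tested rose with 1 lower (median 6.53), against 25.5% of all genes higher and 41% lower. With hypoxia in differentiation medium all 10 fast genes fell (median -5.05) and 8 of the 9 slow genes fell (median -5.75), against 27.7% of all genes. In each list 3 genes entered the test through differentiation at 21% only. Tnnc2, Tnnt3 and Tnni2, the fast troponin subunits, averaged 1774, 1574 and 1395 FPKM in differentiation at 21% and 1.35, 1.76 and 1.22 in differentiation at 2%. Eno3, the muscle enolase, averaged 1053 and 78.2 FPKM. On the slow side Tnnc1, Tnni1 and myoglobin (Mb) averaged 4235, 1165 and 1111 FPKM in differentiation at 21% and 16.4, 2.22 and 0.546 in differentiation at 2%. Tnnc1, the slow troponin C, was also at 20 and 27.3 FPKM on average in growth at 21% and 2%. Atp2a2, the slow calcium pump, fell less, from 312.9 to 41.4 FPKM. Tpm3 went against its list, with a change of -0.86 ± 0.099 in normoxic differentiation and 0.96 ± 0.099 with hypoxia in differentiation medium (limma adjusted p = 0.000315 and 0.000184).

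With differentiation in hypoxia 3 of the 10 fast genes rose and 6 of the 9 slow genes rose with 1 lower, against 23.3% of all genes higher and 17.6% lower, so the fast count is near that of all genes. The slow gene that fell was Tnnc1 (-0.71 ± 0.15, limma adjusted p = 0.0115, and 0.0776 without hypoxic growth replicate B). Leaving out a library gave 1 to 4 and 1 to 6 genes that rose, with the fewest slow genes (1) without either hypoxic growth library, and 4 slow genes rose under either other scaling. In growth medium 6 of 10 fast genes and 4 of 9 slow genes were lower in hypoxia, against 28% of all genes, with 2 to 7 slow genes when a library was left out.

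Of 20 genes that set fibre type or start muscle differentiation, 16 were tested. With differentiation in normoxia 7 rose, against 25.5% of all genes, and 5 fell, Nfix and Thra among them, against 41%. With hypoxia in differentiation medium 10 fell, against 27.7% of all genes, and 6 did not pass. Of the 16, Mef2c and Vgll2 reached 1 FPKM in differentiation at 21% only and so had to be higher there. Myog (myogenin) was at 13.3 and 8.83 FPKM in growth at 21% oxygen, 2576 and 2642 in differentiation at 21%, 0.342 and 0.442 in growth at 2%, and 4.49 and 2.14 in differentiation at 2%. Myod1, its upstream partner, was at 138.7 and 108.1, 180.5 and 171.5, 25.1 and 26.1, and 6.95 and 11.8 FPKM. Both were lower at 2% than at 21% in each medium. Mef2a, a cofactor of both, fell by 3.00 ± 0.12 with hypoxia in differentiation medium and by 1.16 ± 0.12 in growth medium (limma adjusted p = 3.08e-06 and 0.000666). Nfix, a driver of the fetal programme, was at 0.29 ± 0.14 and -0.13 ± 0.14 in those comparisons (limma adjusted p = 0.11 and 0.511). Without hypoxic differentiation replicate B its first value was 0.52 (adjusted p = 0.000943). With hypoxia in growth medium 9 of the 16 fell, against 28% of all genes. Only Mef2d rose (0.61 ± 0.074, limma adjusted p = 0.00113), against 13.5% of all genes.

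Partners of the nonmuscle chains were split. Of 5 smooth and nonmuscle light chain genes, 1 rose and 2 fell with differentiation in normoxia, near the shares of all genes (25.5% and 41%). All 5 fell with hypoxia in growth medium (28% of all genes; 4 and 3 under the other scalings, 2 or 3 without any of the 6 libraries outside hypoxic differentiation), and 2 rose and 1 fell with hypoxia in differentiation medium (37.5% and 27.7% of all genes). There Myl9 rose without hypoxic differentiation replicate A (0.92, limma adjusted p = 0.000755) and fell without replicate B (-1.203, adjusted p = 0.000268), when 3 of the 5 fell. Myl9 was at 8.004 FPKM in replicate A of that pair and 38.1 in replicate B. Myl6, the essential chain, had the directions of Myh9 with differentiation in normoxia (-1.62 ± 0.12) and with hypoxia in differentiation medium (1.64 ± 0.12; limma adjusted p = 3.7e-05 and 3.37e-05). Unlike Myh9, Myl6 also passed with hypoxia in growth medium (-0.41, limma adjusted p = 0.03) and with differentiation in hypoxia (0.43, adjusted p = 0.0259). Myl12b, a regulatory chain, changed by -1.18 with differentiation in normoxia and by 0.98 with hypoxia in differentiation medium (limma adjusted p = 5.06e-05 and 0.000116). Its relative Myl12a was at -0.03 and -0.37 (adjusted p = 0.848 and 0.0602). Myl6b went the opposite way, averaging 126.4 FPKM in differentiation at 21% and 6.05 in differentiation at 2%.

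Of 11 genes that regulate nonmuscle myosin, 3 rose (Cdc42bpa, Ppp1cb and Svil) and 5 fell with differentiation in normoxia, near the shares of all genes (25.5% and 41%). With hypoxia in differentiation medium 6 rose and 2 fell (5 and 3 with median-of-ratios scaling), against 37.5% and 27.7% of all genes. S100a4, which binds the Myh9 tail, averaged 6452 FPKM in growth at 21% oxygen, 419 in differentiation at 21%, 3171 in growth at 2% and 3106 in differentiation at 2%. Rhoa, the switch upstream of the myosin kinases, rose by 1.35 ± 0.092 with hypoxia in differentiation medium (limma adjusted p = 2.94e-05), and Mprip, a phosphatase adaptor, rose by 0.73 ± 0.093 (adjusted p = 0.000507). Svil, which codes for the myosin-binding protein supervillin, went the other way, at 34.9 and 36.4 FPKM in differentiation at 21% and 10.5 and 10.7 at 2%, and fell by 1.66 ± 0.09 (limma adjusted p = 1.06e-05). The phosphatase subunit gene Ppp1cb fell by 0.39 ± 0.14 there (limma adjusted p = 0.0477). That call was lost with upper-quartile scaling, without any library of normoxic growth or normoxic differentiation, and without hypoxic differentiation replicate B (adjusted p 0.054 to 0.177).

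**Figure D5:**
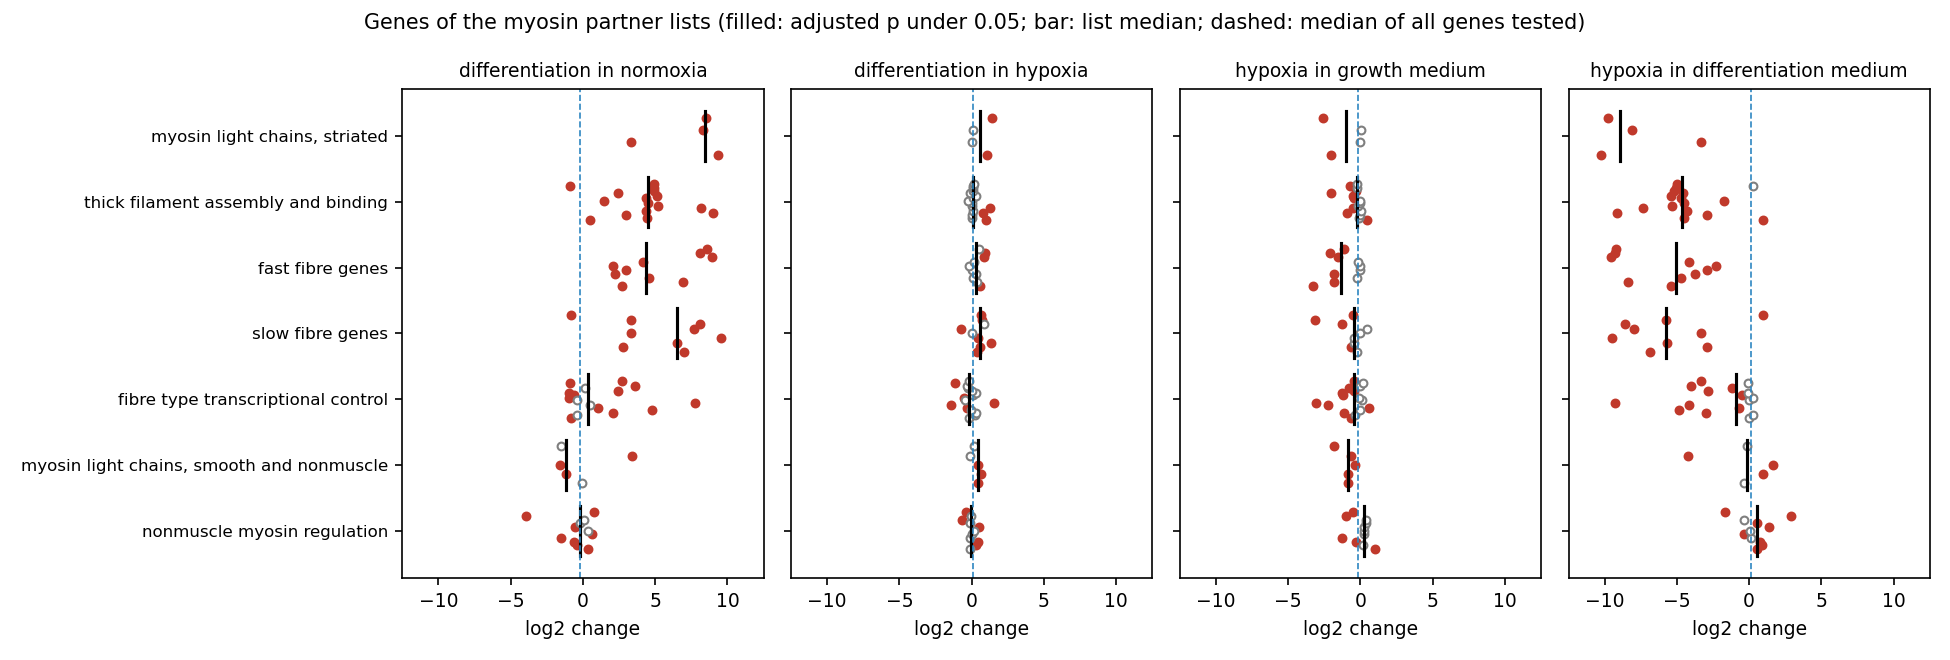
Log2 changes on log2(FPKM + 1) of the genes in 7 myosin partner lists in 4 comparisons (points are genes, filled where the adjusted p is under 0.05, black bar the list median, dashed line the median of all genes tested). The striated lists lie far to the right with differentiation in normoxia and far to the left with hypoxia in differentiation medium, and the smooth and nonmuscle lists lie nearer to 0.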

How the data were processed

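RNA-seq was made from 8 of the series' 24 samples; the H3K27me3 and input libraries were not analysed here. Per the labels' protocols, Trizol RNA entered a stranded total RNA kit. The submitters' processing notes name STAR 2.5.1b, Cufflinks 2.2.1 and build mm9; how strand and multiply mapped reads were treated is not given in the sources used here. The authors deposited gene values in FPKM, which were not rescaled here. Relative depth was read from ratios of low values. A fragment's worth was taken from Myh14, which is listed at the same small step in all hypoxic libraries. Myh14 was chosen after seeing the data, so fragment numbers are estimates. Intervals cover only the counting error of the lower group. 

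Genes with a mean of at least 1 FPKM in a group (12389 of 17914 above 0) were fitted with limma 3.58.1 in R 4.3.3, with an intensity trend on log2(FPKM + 1) and 4 group means (4 residual and 2.61 prior degrees of freedom), two-sided, with Benjamini-Hochberg adjusted p under 0.05 as the threshold. The fit was tested on simulated data. P-values rest on 2 replicates a group. All 10 members are named, and of each list the 4 genes with the highest level plus any that went against it. Members and lists were chosen with earlier results of these data known. Promoters, microRNAs and gene neighbours came from RefSeq tables of GRCm38.p6. Alternatives changed pseudocount, filter, scaling, samples, weights and replicate block.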

Additional observations from a re-analysis of the deposited data

Results flagged for a closer look

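For 8 of the 9 heavy chains tested, the interaction of medium and oxygen passed the threshold (limma adjusted p under 0.05), against 35.4% of all genes with a positive and 18.7% with a negative value. The difference in log2 change, hypoxia minus normoxia, was -6.89 for Myh1, -5.65 for Myh8, -5.51 for Myh3, -4.16 for Myh2, -3.50 for Myh4 and -1.79 for Myh7. Of these 6, all but Myh3 entered the test only by being high in differentiation medium at 21% oxygen. For those genes the minimum level favoured a negative sign without fixing it. The difference was 1.11 for Myh9 and 1.65 for Myh10. For Myh10 it was 1.99 without hypoxic differentiation replicate A and 1.32 without B, the pair in which Myh10 stood at 13.6 and 22.4 FPKM. With 2 libraries a group, no formal outlier test was made.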

How the results depend on the processing

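Among all genes, 8241 were called for differentiation in normoxia, 5073 for differentiation in hypoxia, 5135 for hypoxia in growth medium, 8075 for differentiation medium at 2% against 21% and 6707 for the interaction. Requiring a log2 change of at least 1 left 3542, 925, 1268, 3420 and 3410. Fitting only the samples compared gave 2867 calls for differentiation in hypoxia, and leaving out 1 library gave 6332 to 9277, 2503 to 6479, 2989 to 6831, 6352 to 8671 and 5129 to 8016; the cause of these differences was not tested. The fewest calls came without hypoxic growth replicate B (differentiation in hypoxia, 2503) and without hypoxic growth replicate A (hypoxia in growth medium, 2989); the other hypoxic growth replicate gave 2673 and 3077. Values near 0 changed sign. For differentiation in hypoxia, Myh10 ran from -0.094 to 0.58 over left-out libraries, Myh2 from -0.0052 to 0.013 and Myh8 from -0.0079 to 0.036. For hypoxia in growth medium, Myh9 was at 0.079 with median-of-ratios and 0.13 with upper-quartile scaling. No member that passed a test changed sign in any alternative run.

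Same-lettered libraries did not deviate together: the correlation of their A minus B differences between groups ran from -0.17 to 0.042 over 12389 genes. A replicate block by letter gave 7931, 4453, 4634, 7802 and 6273 calls in the order above and changed no call of a member. Setting values under 3 fragments to 0 moved the share of Myh7b in the hypoxic growth sum from 94.4% to 95.5%. Weighting shares by transcript length was not run, since no transcript lengths were used here. Depth limits the hypoxic and growth medium values of Myh2, Myh4, Myh6 and Myh8, which rest on 0 to about 9 estimated fragments a group.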
